A study of Mus musculus with 2 samples.

Results

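Superficial squamous cells are the outermost living cells of the mouse esophagus, and here they are 391 wild-type cells of 5787 that passed a filter on cell quality (6.76%, exact binomial 95% interval 6.12% to 7.43%). The filter asked for 500 genes or more and for 1000 or more UMIs (unique molecular identifiers, each standing for 1 captured RNA molecule), of which mitochondrial ones could be up to 10%. The 391 cells were chosen by their own RNA. They had at least 60 UMIs of the keratins Krt13 and Krt4 together per 10000 UMIs of the cell (CP10K), and at least 4 CP10K of Cnfn, Nccrp1, Crct1, Ltf and Ppbp together, called the 5-gene sum below. They were set against the 1585 wild-type cells that passed the same keratin threshold but had a 5-gene sum under 4 CP10K, called low-sum cells. The other 3811 passing wild-type cells, under 60 CP10K of Krt13 and Krt4, are called low-keratin cells. The 5 genes and the 2 keratins describe the choice of cells. Counts over all genes and over gene lists leave them out.

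The tissue was esophageal epithelium of C57BL/6 mouse embryos at E18.5, shortly before birth, freed of its muscle layer and taken apart with dispase and trypsin. The p63-KO library came from embryos labelled p63-CreER/p63-CreER, and the wild-type library from littermate controls labelled p63-CreER, so the wild-type cells also carried the p63-CreER allele. Trp63 encodes p63, the transcription factor that keeps the basal cells of stratified epithelia. Each genotype had 1 library, so no difference below has a replicate check or a test, and the 95% intervals cover counting error only.

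In the esophagus, basal cells divide on the basement membrane, leave it, and pass through layers of cells rich in Krt13 and Krt4 to the lumen, where they are shed. Near the lumen they build a cornified envelope, a shell of small proline-rich proteins, periplakin and envoplakin linked by transglutaminases under the plasma membrane. Their surface carries glycolipid-anchored Ly6 proteins and transmembrane mucins, and proteases and their inhibitors control how they detach.

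The 5 genes that chose the cells stand for different products of such a surface. Cnfn encodes cornifelin, a protein of the envelope, and Crct1 lies in the gene cluster that holds many envelope genes. Nccrp1 encodes an F-box-like protein of squamous epithelia. Ltf encodes lactoferrin, an iron-binding defence protein, and Ppbp a chemokine best known from platelets. To show the DNA in front of genes that marked these cells, the 250 bases before the RefSeq start of transcription are printed below for Cnfn, Ppbp, Ecm1 and Sprr3, and for Krtdap, a squamous gene that was lower in them. They are read 5′ to 3′ in the direction of the gene on GRCm38.p6, at chr7:25369725-25369974 (minus strand), chr5:90768268-90768517 (plus strand), chr3:95739570-95739819 (minus strand), chr3:92458721-92458970 (minus strand) and chr7:30787655-30787904 (plus strand). Capitals mark the letters TGANTCA, which AP-1 factors bind, CCACACCC, which KLF factors bind (both looked for on both strands), and TATAAA on the gene's own strand 45 to 15 bases before the start.
Cnfn: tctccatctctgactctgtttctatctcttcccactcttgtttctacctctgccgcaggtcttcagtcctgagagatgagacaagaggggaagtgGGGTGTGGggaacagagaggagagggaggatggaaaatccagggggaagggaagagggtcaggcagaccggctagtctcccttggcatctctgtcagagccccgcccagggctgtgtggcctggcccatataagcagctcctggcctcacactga
Ppbp: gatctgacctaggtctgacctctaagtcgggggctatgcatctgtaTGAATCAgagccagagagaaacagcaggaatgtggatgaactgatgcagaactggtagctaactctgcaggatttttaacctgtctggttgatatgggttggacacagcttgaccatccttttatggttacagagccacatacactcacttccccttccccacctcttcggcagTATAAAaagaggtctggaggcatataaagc
Ecm1: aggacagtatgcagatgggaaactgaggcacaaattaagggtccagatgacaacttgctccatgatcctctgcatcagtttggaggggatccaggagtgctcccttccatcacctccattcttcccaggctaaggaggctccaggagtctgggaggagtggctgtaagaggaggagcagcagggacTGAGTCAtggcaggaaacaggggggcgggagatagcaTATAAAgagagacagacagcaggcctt
Sprr3: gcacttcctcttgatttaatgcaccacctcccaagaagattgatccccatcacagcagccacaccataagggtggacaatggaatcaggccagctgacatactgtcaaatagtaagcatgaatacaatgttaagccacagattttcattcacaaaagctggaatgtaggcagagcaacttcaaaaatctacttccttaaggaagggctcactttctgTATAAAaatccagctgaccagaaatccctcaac
Krtdap: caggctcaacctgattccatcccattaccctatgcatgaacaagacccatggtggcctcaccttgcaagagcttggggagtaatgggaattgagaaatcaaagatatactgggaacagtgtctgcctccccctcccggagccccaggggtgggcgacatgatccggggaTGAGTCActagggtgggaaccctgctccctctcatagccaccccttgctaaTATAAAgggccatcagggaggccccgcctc
The letters TGANTCA stand in the 250 bases before 7.82% of 27025 genes with such an entry, CCACACCC before 3.68% and TATAAA at that distance before 2.68%. Ppbp, Ecm1 and Krtdap each hold TGANTCA and TATAAA, Sprr3 holds TATAAA and Cnfn holds CCACACCC. The gene that was lower thus shares both motifs with genes that were higher. A match is a description of the letters and not a site of binding. The printed genes are examples, and no rule drew them from all genes that marked the cells. Their matches are therefore not to be read as a share beside those of all genes, and enrichment was not tested. The letters AACCNGTT of a GRHL motif were also counted before all genes and are not marked here.

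The cells reached the 5-gene sum in different ways. At least 1 UMI of Cnfn was found in 374 of the 391 cells (95.7%), of Nccrp1 in 355 (90.8%), of Ltf in 202 (51.7%), of Crct1 in 145 (37.1%) and of Ppbp in 124 (31.7%). Cnfn, Nccrp1 and Crct1 alone reached the threshold in 356 cells (91.0%), and only through Ltf and Ppbp did 14 cells (3.58%) reach it. All 5 genes were found together in 43 cells, and a single one of them in 24. The median 5-gene sum was 9.40 CP10K (range 4.04 to 143), which rested on a median of 20 UMIs, and 8 cells had fewer than 3 such UMIs. The plot of wild-type cells by keratin and 5-gene sum shows no gap at the threshold.

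**Figure D1:**
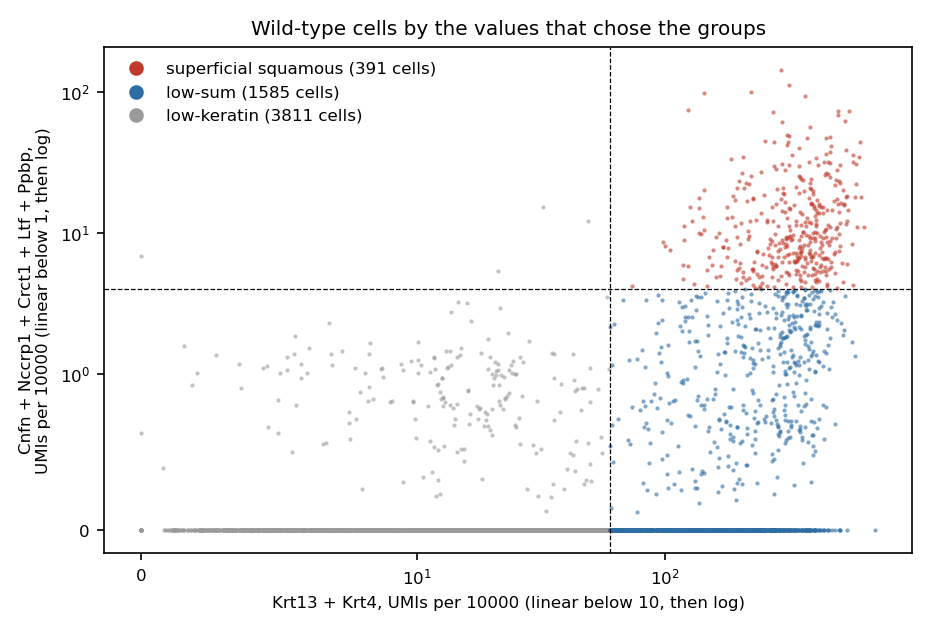
Each point is a wild-type cell, placed by Krt13 plus Krt4 (x axis) and by the 5-gene sum (y axis), both in UMIs per 10000 UMIs of the cell on axes that turn from linear to log. Dashed lines are the thresholds of 60 and 4 CP10K, and the 391 superficial squamous cells lie above and right of both.

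Cells just inside and just outside the threshold were much alike. In the 41 cells with a 5-gene sum of 4 to 5 CP10K, Psca stood at 7263 CPM (the UMIs of a gene per 1e6 UMIs, both summed over the cells). In the 66 cells with a sum of 3 to 4 CP10K it stood at 6054 CPM. Ecm1 was at 260 CPM inside and 257 CPM outside, and Mal at 3706 CPM inside and 3354 CPM outside. On these genes no step separated the chosen cells from their nearest neighbours.

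The superficial squamous cells held more RNA molecules and more keratin than the low-sum cells. Their median was 18754 UMIs and 4452 genes, against 13264 UMIs and 4039 genes in low-sum cells and 10116 UMIs and 3671 genes in low-keratin cells. Median Krt13 plus Krt4 was 348 CP10K in superficial squamous cells, 169 CP10K in low-sum cells and 14.5 CP10K in low-keratin cells. Mitochondrial UMIs had a median share of 2.93% in superficial squamous cells, 3.02% in low-sum cells and 3.11% in low-keratin cells. Because the groups differ in keratin level, many results are also given for cells with at least 250 CP10K of Krt13 plus Krt4, a comparison added after the data were seen. It holds 300 superficial squamous and 421 low-sum cells, whose median keratin was closer, 386 against 323 CP10K.

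The rule did not use 2 further markers of these cells, Psca and Msln. Both were chosen with earlier results of these data known, so their levels describe the label and do not test it. Psca, a glycolipid-anchored surface protein of the Ly6 family (chr15:74714839-74717069, plus strand, mm10), was at 11202 CPM in superficial squamous cells, 1297 CPM in low-sum cells and 40.1 CPM in low-keratin cells. Msln, which encodes the cell-surface protein mesothelin (chr17:25748613-25754378, minus strand), was at 321, 64.4 and 6.50 CPM in the same order of groups. Both markers were thus highest in the chosen cells, 8.64-fold (8.53 to 8.75) over low-sum cells for Psca and 4.98-fold (4.69 to 5.30) for Msln. After thinning each cell to 2000 UMIs, which left out 6 superficial squamous and 28 low-sum cells, a Psca UMI was found in 99.2% of superficial squamous and 33.9% of low-sum cells (99.7% and 57.8% unthinned). In 1153 thinned cells with under 10 CP10K of Krt13 plus Krt4, whose median was 9484 UMIs, the share was 5.98% (29.5% unthinned), the level in cells that should lack the gene. For Msln the thinned shares were 35.6% in superficial squamous cells, 6.49% in low-sum cells and 0.260% in those low-keratin cells (84.4%, 21.4% and 1.86% unthinned).

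Genes that mark other cell types with Ppbp, Ltf or Msln were mostly absent. The platelet genes Pf4 and Gp9 had 0 UMIs in the superficial squamous cells, and so did the immune genes Ptprc and Tyrobp and the neutrophil genes Elane, Mpo, Retnlg and S100a8. The 7 immune markers summed to 12.9 CPM in superficial squamous cells and 8.33 CPM in low-sum cells, with Laptm5, a lysosomal membrane protein of blood cells, at 7.60 and 0.826 CPM. The 7 neutrophil markers other than Ltf summed to 0.441 CPM in superficial squamous cells and 0.668 CPM in low-sum cells. The 6 platelet markers other than Ppbp summed to 12.5 CPM in superficial squamous cells and 23.7 CPM in low-sum cells, nearly all from Itga2b. Of the mesothelial markers, Wt1, Lrrn4 and Gpm6a had 0 UMIs, while Msln and Upk3b gave nearly all of a sum of 398 CPM in superficial squamous cells, against 77.4 CPM in low-sum cells. The epithelial genes Epcam (736 and 542 CPM) and Cdh1 (565 and 558 CPM) were present in superficial squamous and low-sum cells alike. The 6 markers of the epidermis summed to 62.1 CPM in superficial squamous cells and 49.5 CPM in low-sum cells, so they were not absent. Most came from Krt10 (33.5 and 29.4 CPM) and from Lor, the main envelope protein of the epidermis (23.5 and 13.5 CPM). Krt1 was at 4.85 and 6.37 CPM and Krt2 at 0.220 and 0.0786 CPM. Flg2 and Hrnr, genes of the dry outer layer of skin, had 0 UMIs in superficial squamous cells.

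Over all genes, 402 of 10518 were higher by 2-fold or more in superficial squamous than in low-sum cells (3.82%), and 1108 were at least 2-fold lower (10.5%). Counts of gene list members below are to be read beside these shares. A gene was counted if it reached 5 CPM in either group, and ratios were taken of CPM with 1 added, which understates the change of weakly expressed genes. The median log2 ratio of all counted genes was −0.31, so that most genes were slightly lower beside a few very abundant ones. The 10 most abundant genes took 14.4% of all UMIs in superficial squamous cells, 8.60% in low-sum cells and 6.85% in low-keratin cells. When the totals were taken without the 50 most abundant genes, the median was −0.20. In cells of at least 250 CP10K of keratin, 230 of 9885 genes were past 2-fold on the higher side and 209 on the lower, with a median of −0.17. List counts at that keratin level are to be read beside these counts, not beside those of the whole comparison. Of the 402 higher genes, all 402 stayed above 0 in that comparison and 200 stayed at least 2-fold higher. Of the 1108 lower genes, 969 stayed below 0 and 207 stayed at least 2-fold lower. The cells of that comparison are part of those in which the genes were called. What stayed, here and below, is therefore no check of the calls.

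The library held cells with Xist RNA, as female cells have, and cells with Y-linked RNA, so it pooled embryos. The ratios were also taken within each kind of cell. Cells with Xist RNA and no Y-linked RNA numbered 160 superficial squamous and 483 low-sum, and cells with Y-linked RNA and no Xist numbered 94 and 390. A further 126 superficial squamous and 679 low-sum cells had both kinds of RNA and were left out. Of the 402 higher genes, 401 were above 0 in both the Xist-only and the Y-only cells and 320 were at least 2-fold higher in both. Of the 1108 lower genes, 1098 were below 0 in both and 816 at least 2-fold lower in both. Over all genes, 413 of 10480 were at least 2-fold higher and 1589 lower in Xist-only cells. In Y-only cells 548 of 10344 were higher and 1507 lower. The sets come from the same library and are not replicates. They are also part of the cells in which the genes were called, so these counts are no check of the calls.

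By the log2 ratio of CPM + 1, Psca, Ecm1, Arg1, Cstdc5 and Cwh43 were highest. By the fold without the added 1, Ecm1 (8.70-fold, 8.22 to 9.22) and Psca lie within counting error of each other. Ecm1 encodes a secreted protein of the extracellular matrix (chr3:95734147-95739569, minus strand). It was at 539 CPM (524 to 554) in superficial squamous cells, against 61.9 CPM (58.9 to 65.0) in low-sum cells, and at 4.63 CPM in low-keratin cells. Arg1, the enzyme that splits arginine into ornithine and urea, was at 1522 CPM in superficial squamous and 191 CPM in low-sum cells, 7.98-fold higher (7.73 to 8.25). Cell by cell, Psca had a median of 91.8 CP10K in superficial squamous cells, with 32.3 and 211 CP10K as the 10th and 90th percentiles, against a median of 0.753 CP10K in low-sum cells, with 0 and 32.2 CP10K. Arg1 had a median of 12.6 CP10K in superficial squamous cells and 0 CP10K in low-sum cells, whose 90th percentile was 5.24 CP10K. The upper tail of the low-sum cells thus overlapped the superficial squamous range for both genes. Other named genes were less widespread. Cstdc5 had a median of 0 CP10K in superficial squamous cells, as had Krt6b, Muc20, Defb1, Rptn, Cdsn and Slpi, named below. Most superficial squamous cells thus held no UMI of each of these genes, and their summed CPM does not describe every cell.

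The other leading genes span secretion, membrane and keratin functions. Cstdc5, of the stefin cluster of protease inhibitors, was at 124 CPM in superficial squamous and 15.1 CPM in low-sum cells, but its near-identical neighbours make its reads uncertain. Fut9, which adds fucose to surface glycans, was at 291 and 42.2 CPM, and Gabrp, a subunit of a chloride channel gated by GABA, at 100.4 and 14.9 CPM. Cwh43, needed to remodel the lipid of glycolipid anchors in yeast, was at 115 and 14.7 CPM. Mal, a small membrane protein of apical transport, was at 5373 CPM in superficial squamous and 941 CPM in low-sum cells, 5.71-fold higher (5.62 to 5.80). Phlda1 was at 106 and 16.5 CPM and Kctd14 at 109 and 14.7 CPM in the same groups. All 15 leading genes also stayed at least 2-fold higher at 250 CP10K of keratin or more, where Psca was at 11464 CPM in superficial squamous and 2499 CPM in low-sum cells (log2 ratio 2.20), Ecm1 had a log2 ratio of 2.19 and Mal one of 1.62.

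**Figure D2:**
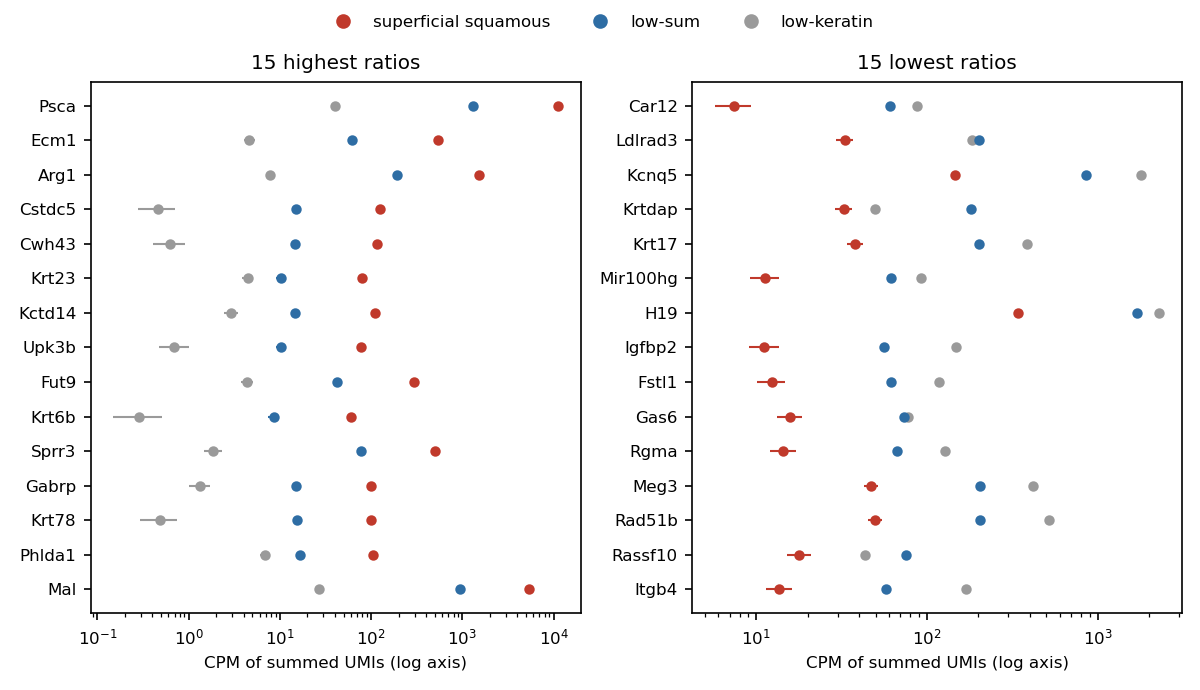
Each row is a gene, and each point its level in CPM of summed UMIs (log axis) in superficial squamous (red), low-sum (blue) and low-keratin cells (grey), with exact 95% Poisson intervals. Left are the 15 genes with the highest ratios of superficial squamous over low-sum cells, where low-keratin cells are always lowest, and right the 15 with the lowest ratios, where Krtdap, Ldlrad3 and Rassf10 are highest in low-sum cells.

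Among structural proteins of the cornified envelope, 6 of 36 listed genes were measured, of which 3 were at least 2-fold higher and 0 lower (median log2 ratio 1.03). Sprr3, a small proline-rich protein of the esophageal envelope (chr3:92456502-92458720, minus strand), was at 501 CPM in superficial squamous and 77.4 CPM in low-sum cells. Sprr1a, a proline-rich protein of the same family, was at 479 and 193 CPM, and Rptn, a large envelope protein called repetin, at 8.27 and 1.14 CPM. Lor was at 23.5 CPM in superficial squamous and 13.5 CPM in low-sum cells, short of 2-fold. With keratin at 250 CP10K or more, Sprr3 had a log2 ratio of 1.91 and Sprr1a one of 0.48.

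Enzymes and scaffold proteins of envelope assembly were measured for 22 genes, with 8 higher, 2 lower and a median of 0.87. Asprv1, a skin protease that cuts filaggrin, was at 1309.9 CPM in superficial squamous and 274 CPM in low-sum cells. Padi1, which turns arginine residues into citrulline, was at 77.3 and 13.2 CPM, Cdsn, the corneodesmosin that holds outer cells together, at 6.50 and 0.393 CPM, and Csta1, a stefin-type protease inhibitor, at 467 and 94.97 CPM. The plakins Ppl (1124 and 625 CPM) and Evpl (627 and 325 CPM) did not reach 2-fold. Krtdap, a small secreted protein of suprabasal keratinocytes, went the other way at 32.5 CPM in superficial squamous and 181 CPM in low-sum cells. Above that keratin level the median of the list was 0.19, with 6 higher and 2 lower, and Asprv1, Padi1, Cdsn and Csta1 had log2 ratios of 1.37, 1.79, 2.31 and 1.42.

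S100 calcium-binding proteins had 3 of 8 measured genes higher and 0 lower (median 0.95). S100a6 was at 8632 CPM in superficial squamous and 3050 CPM in low-sum cells, S100a3 at 167 and 42.3 CPM, and S100a1 at 132 and 43.3 CPM. S100a14 (1642 and 1396 CPM) and S100a16 (1664 and 1537 CPM) were nearly level between the groups. In cells of at least 250 CP10K of keratin the list had 2 of 9 measured genes higher and 0 lower (median 0.54), and S100a6 was under 2-fold (log2 ratio 0.93), while S100a3 was at 1.14 and S100a1 at 1.17.

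Apical surface proteins had 20 of 34 measured members higher, with 1 lower and a median log2 ratio of 1.07, against 3.82% of all genes. Besides Psca, which stands apart from this list, they include Muc20, a transmembrane mucin, at 40.9 CPM in superficial squamous and 5.07 CPM in low-sum cells. Upk3b and Upk1b, of the uroplakins that plate the surface of the bladder, were at 77.5 and 10.4 CPM and at 2102 and 928 CPM. Anxa1, a calcium-dependent membrane-binding protein, was at 9494 CPM in superficial squamous and 3673 CPM in low-sum cells, and Emp1, a membrane protein of squamous epithelia, at 1514 and 639.5 CPM. Clca2 was the lower member, at 0.551 and 5.15 CPM. In cells of 250 CP10K of keratin or more 8 of 32 measured members were still higher by 2-fold or more and 0 lower (median 0.56). Muc20 (log2 ratio 2.96) and Upk3b (2.47) were among them, while Upk1b was at 0.47 and Ly6d at 0.23.

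Surface proteases and their inhibitors split, with 8 of 33 measured genes higher and 3 lower (median 0.46). Slpi, a secreted inhibitor of neutrophil elastase, was at 21.8 CPM in superficial squamous and 3.50 CPM in low-sum cells, Serpinb11 at 317 and 76.1 CPM, and Prss27, a membrane-anchored serine protease, at 108 and 30.1 CPM. Tmprss11a, another membrane-anchored serine protease, was lower at 99.0 CPM in superficial squamous and 261 CPM in low-sum cells, and Serpinb12 at 12.9 and 32.1 CPM. Defence genes had 6 of 13 measured members higher and 2 lower (median 0.84). Defb1, a beta-defensin, was at 57.8 CPM in superficial squamous and 13.6 CPM in low-sum cells, and the mucosal chemokine Cxcl17 at 8.38 and 2.005 CPM. Lgals7, a galectin of stratified epithelia, was lower at 8.05 and 36.7 CPM. Among cells matched to at least 250 CP10K of keratin, the protease list had 6 of 33 higher and 2 lower (median 0.14), and Tmprss11a was under 2-fold (log2 ratio −0.88). There the defence list had 3 of 12 higher and 0 lower (median 0.42), with Cxcl17 at 1.65 and Lgals7 at −0.44.

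Junction genes did not move as a block. Tight junction genes had 4 of 19 measured members past 2-fold on the higher side and 1 on the lower (median 0.51). Cldn3 was at 1007 CPM in superficial squamous and 257 CPM in low-sum cells, Cldn23 at 159 and 56.2 CPM, and Cldn1 was lower at 5.62 and 14.1 CPM. Desmosome genes had 0 of 11 measured members past 2-fold on the higher side and 2 on the lower (median −0.34), close to that of all genes. Dsp, the desmoplakin that ties desmosomes to keratin, was at 1116 CPM in superficial squamous and 1562 CPM in low-sum cells, Dsg3 at 434 and 634 CPM, and Dsc3, which belongs to the lower layers, at 1.21 and 6.997 CPM. With keratin of at least 250 CP10K, 1 of 18 tight junction genes was higher and 0 lower (median 0.24). Cldn3 then had a log2 ratio of 1.10, and Cldn23 (0.80) and Cldn1 (−0.68) were under 2-fold. The desmosome list then had 0 of 11 higher and 2 lower (median −0.48), with Dsc3 at −0.16.

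Squamous and simple keratins other than Krt13 and Krt4 were mostly higher, unlike the basal keratins Krt5, Krt14 and Krt17, which were lower. Among squamous keratins 6 of 9 measured ones were higher by 2-fold or more and 0 lower (median 1.38), and among keratins of simple epithelia 3 of 5 were higher and 0 lower (median 1.35). Krt78 was at 99.3 CPM in superficial squamous and 15.3 CPM in low-sum cells, Krt23 at 79.7 and 10.4 CPM, and Krt6b at 60.1 and 8.53 CPM, where Krt6a (3016 and 1257 CPM) and Krt6b are so alike that reads may be split between them. Krt7, a simple keratin, was at 2377 CPM in superficial squamous and 668 CPM in low-sum cells, and Krt18 at 504 and 189 CPM. Among cells of 250 CP10K or more of Krt13 plus Krt4, 4 of 9 squamous and 2 of 5 simple keratins were higher and 0 lower (medians 0.90 and 0.94). Krt23 then had a log2 ratio of 2.34, Krt78 one of 1.80 and Krt7 one of 1.24, whereas Krt18 was at 0.94 and Krt6a at 0.49.

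**Figure D3:**
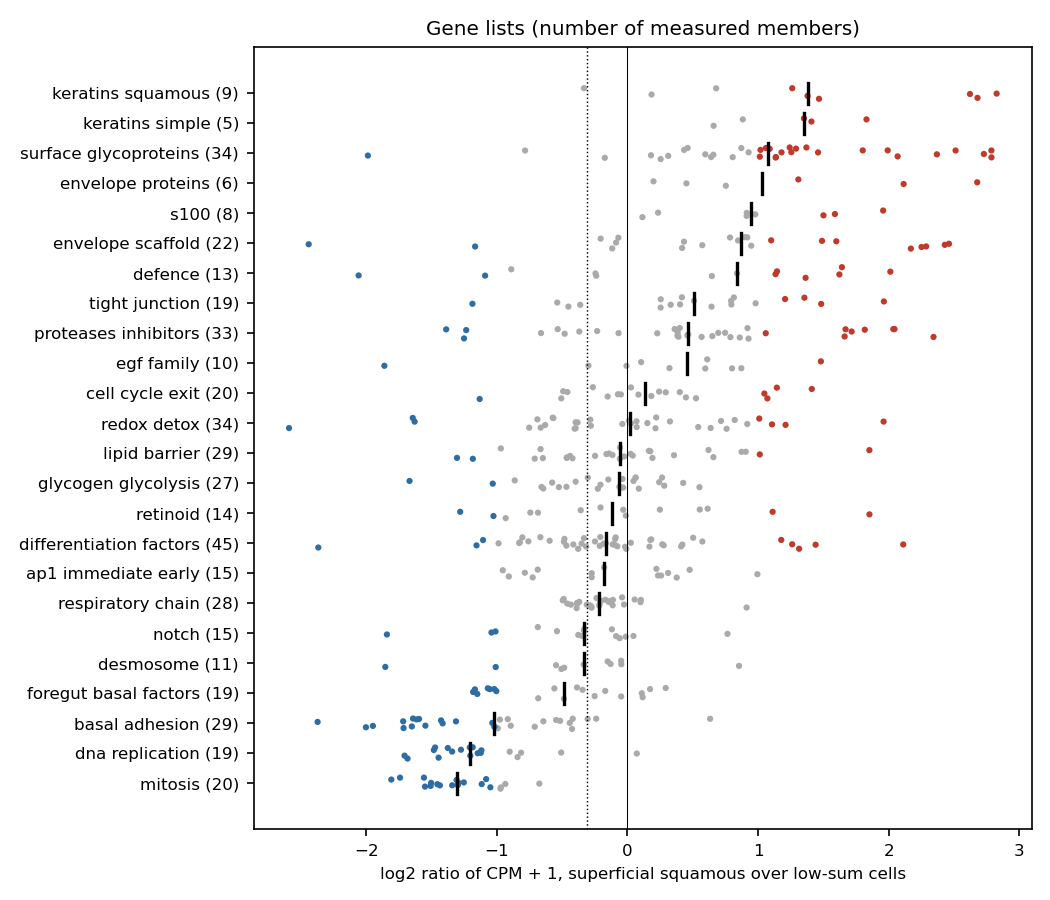
Each row is a gene list with its number of measured members, and each point a member's log2 ratio of CPM + 1, superficial squamous over low-sum cells, red if at least 2-fold higher and blue if at least 2-fold lower. Black bars are list medians and the dotted line is the median of all counted genes, −0.31. Squamous and simple keratins and surface proteins lie at the top, and mitosis, DNA replication and basal adhesion genes at the bottom.

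Of 45 measured regulators of squamous differentiation, 5 lay past 2-fold on the higher side, against 3.82% of all genes, and 3 on the lower, against 10.5% (median −0.17). Hopx, a homeodomain protein that does not bind DNA, was at 2525 CPM in superficial squamous and 584 CPM in low-sum cells. Prdm1, a transcriptional repressor known to act in the final differentiation of keratinocytes, was at 76.5 and 27.6 CPM, and Mxd1, an antagonist of Myc, at 80.5 and 31.8 CPM. Sox15 was lower at 0.772 and 8.14 CPM. At 250 CP10K of keratin or more 1 of 43, Hopx, was at least 2-fold higher (log2 ratio 1.25), and 0 were lower. Prdm1 (0.94) and Mxd1 (0.86) were then under 2-fold.

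Metabolic and detoxifying genes gave single large differences. Gsto1, a glutathione transferase of the omega class, was at 15906 CPM in superficial squamous and 4085 CPM in low-sum cells, and took 1.59% of all UMIs in the superficial squamous cells. Gclc, the enzyme that sets the rate of glutathione synthesis, was lower at 32.0 and 101 CPM. The list of redox and detoxification genes had 4 of 34 measured members higher and 3 lower (median 0.02). Barrier lipid genes had 2 of 29 higher and 2 lower (median −0.06). Of all genes 3.82% were higher and 10.5% lower, so neither list count is read as a shift of its list. Alox12b, a lipoxygenase of the skin barrier, was at 29.4 CPM in superficial squamous and 7.43 CPM in low-sum cells, and Cers4, a ceramide synthase, at 8.27 and 21.9 CPM. Respiratory chain genes (28 measured) had 0 higher and 0 lower, and glycogen and glycolysis genes (27 measured) had 0 higher and 2 lower. At 250 CP10K of keratin or more the redox list had 1 of 33 higher and 2 lower (median −0.04), with Gsto1 at a log2 ratio of 1.14 and Gclc at −1.42. The lipid list then had 2 of 27 higher and 1 lower (median −0.20), with Alox12b at 1.04 and Cers4 at −0.38, and the glycogen and glycolysis list 0 of 26 either way.

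Basal keratins with the genes of hemidesmosomes and basement membrane counted 29 measured, 15 of them at least 2-fold lower and 0 higher (median −1.02), against 10.5% of all genes. Krt17, a keratin of basal and stressed cells, was at 38.02 CPM in superficial squamous, 201 CPM in low-sum and 386 CPM in low-keratin cells, and Itgb4, the integrin of hemidesmosomes, at 13.7, 57.7 and 169 CPM. Krt15 went the other way from other basal genes, at 15259 CPM in superficial squamous, 9841 CPM in low-sum and 9759 CPM in low-keratin cells. Trp63 was at 73.6 CPM in superficial squamous, 167 CPM in low-sum and 437 CPM in low-keratin cells. A Trp63 UMI was found after thinning in 10.6% of superficial squamous and 26.0% of low-sum cells, and in 58.0% of cells with under 10 CP10K of Krt13 plus Krt4 (61.6%, 74.7% and 88.3% unthinned). At 250 CP10K of keratin or more 0 of 24 measured members of the basal list were at least 2-fold lower and the median was −0.35, against −0.17 for all genes.

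Mitosis genes had 16 of 20 measured members at least 2-fold lower and 0 higher (median −1.30). At 250 CP10K of keratin or more only 8 were measured, with 3 higher, 1 lower and a median of 0.58. That median rests on few UMIs, such as 72 of Ube2c in superficial squamous and 33 in low-sum cells, and 68 and 50 of Top2a. DNA replication genes had 14 of 19 lower and 0 higher (median −1.20), and at that keratin level 0 of 10 either way (median −0.04). In the cells with Y-linked RNA and no Xist, 2 of 16 measured mitosis genes were at least 2-fold lower (median −0.67). Top2a, the topoisomerase of dividing cells, was at 15.3 CPM in superficial squamous and 47.1 CPM in low-sum cells, and at 10.5 and 6.996 CPM among cells of at least 250 CP10K. After thinning, at least 2 mitosis genes were found in 3.64% of superficial squamous cells, 8.67% of low-sum cells and 39.2% of cells with under 10 CP10K of Krt13 plus Krt4 (31.2%, 32.7% and 55.8% unthinned). Inhibitors of the cell cycle and p53 targets had 4 of 20 higher and 1 lower, among them Cdkn2b, an inhibitor of Cdk4 and Cdk6, at 70.8 CPM in superficial squamous and 26.0 CPM in low-sum cells. At the same keratin level 1 of 20 was higher and 0 lower, and Cdkn2b had a log2 ratio of 0.91.

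Of 15 measured Notch pathway genes 0 were higher and 3 lower (median −0.33). Notch1, the receptor that drives cells out of the basal layer, was at 42.9 CPM in superficial squamous, 156 CPM in low-sum and 70.1 CPM in low-keratin cells, and its log2 ratio was −1.84 in all cells and −1.14 at 250 CP10K of keratin or more. Of 10 EGF family genes, Ereg, a ligand, was higher at 31.4 CPM in superficial squamous and 10.6 CPM in low-sum cells, and Nrg1, another ligand, lower at 1.21 and 7.04 CPM. Of 14 retinoid genes 2 were higher and 2 lower. Aldh1a3, which makes retinoic acid, was at 14.1 CPM in superficial squamous and 3.18 CPM in low-sum cells, and Rdh12, a retinal reductase, at 4.30 and 11.9 CPM. AP-1 subunits and immediate-early genes (15 measured) had 0 past 2-fold either way. Factors of foregut identity and basal cells had 0 of 19 higher and 7 lower, against 3.82% and 10.5% of all genes. With at least 250 CP10K of keratin, Notch genes had 0 of 14 higher and 1 lower, EGF family genes 0 of 9 either way (Ereg 0.54, Nrg1 −0.82), retinoid genes 1 of 14 higher and 0 lower (Aldh1a3 1.40, Rdh12 −0.88), and foregut and basal factors 0 of 18 either way.

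The genes with the lowest ratios were of mixed function. Car12, a carbonic anhydrase on the cell surface, was at 7.38 CPM (5.72 to 9.38) in superficial squamous cells, against 60.5 CPM (57.6 to 63.6) in low-sum cells. Kcnq5, a potassium channel subunit (chr1:21398403-21961942, minus strand), was at 146 CPM in superficial squamous, 857 CPM in low-sum and 1798 CPM in low-keratin cells. H19, an imprinted long noncoding RNA of fetal tissue, was at 340, 1687 and 2292 CPM in the same groups, and Meg3, another imprinted noncoding RNA, at 47.2, 204.97 and 416 CPM. At 250 CP10K of keratin or more Car12 had a log2 ratio of −2.39, Krtdap −1.83, H19 −1.41 and Kcnq5 −1.11, while Krt17 was at −0.40 and Itgb4 at −0.14.

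Within the superficial squamous cells, leading genes also differed with the 5-gene sum. The cells fell into 153 with a sum of 4 to 8 CP10K, 132 with 8 to 16 and 106 with 16 or more, and the low-sum cells into 1134 with 0, 307 with up to 2 and 144 with 2 to 4. Psca was at 275, 1841, 4880, 7379, 10641 and 17941 CPM over these bins from the lowest sum to the highest. Arg1 was at 56.8, 288, 599.9, 912, 1342 and 2703 CPM, and Krt23 at 6.74, 12.5, 22.8, 31.6, 51.3 and 189.5 CPM, with its largest step between the last bins. Kcnq5 was at 1114, 598, 238, 232, 73.1 and 95.2 CPM, so it did not go on falling in the last bin. These genes were chosen in the same cells, and the bins are cut on the values that chose the cells, so the levels describe the range and support nothing further. Median Krt13 plus Krt4 also differed over the 6 bins, at 147, 230, 309, 334, 357 and 371 CP10K, and its part in these levels was not tested.

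**Figure D4:**
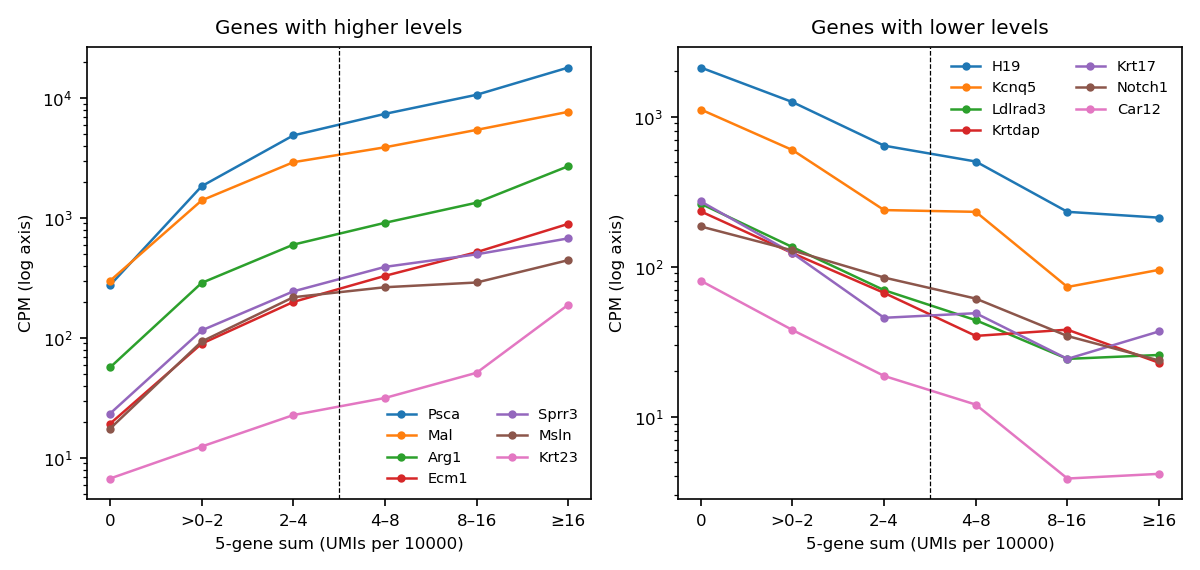
Levels in CPM of summed UMIs (log axis) are plotted over 6 bins of the 5-gene sum, with low-sum cells left of the dashed line and superficial squamous cells right of it. Genes in the left panel increase in every bin, and those in the right panel are lower at the right end than at the left, with Krt17, Krtdap, Kcnq5, Ldlrad3 and Car12 not lower at every step.

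Ltf and Ppbp divided the superficial squamous cells. The 239 cells with a UMI of either had a median of 22083 UMIs, and the 152 without had 16551 UMIs, and the part of depth in the division was not tested. Median Krt13 plus Krt4 was 337 CP10K with and 358 CP10K without. Ltf and Ppbp are among the genes that chose the cells. A cell without them therefore had to reach the threshold through Cnfn, Nccrp1 and Crct1. The median sum of Cnfn, Nccrp1 and Crct1 was 9.98 CP10K with and 7.45 CP10K without. Nccrp1 alone was at 440 CPM with and 253 CPM without. The part of that sum in the differences below was not tested. In the cells with Ltf or Ppbp, 105 of 9808 genes were higher by 2-fold or more (1.07%) and 50 lower (0.51%). Muc16, a large transmembrane mucin, was at 116 CPM with and 45.5 CPM without, and Tppp3, a tubulin-binding protein, at 52.4 and 15.5 CPM. Ifi209 (53.4 and 18.0 CPM) and Ddx60 (69.2 and 29.99 CPM), both of the kind induced by interferon, were also among the 10 highest ratios. Serpinb3a, a protease inhibitor, was at 34.6 CPM with and 114 CPM without, and Tmprss11a at 66.0 and 171 CPM. Psca was at 13035 CPM with and 7167 CPM without, and Cnfn at 699.9 and 547 CPM.

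The same rule applied to the p63-KO library chose cells of another makeup. It was met by 144 of 2422 passing p63-KO cells (5.95%, 5.04% to 6.96%), with a further 156 above the keratin threshold and below the sum. Ltf alone reached the sum in 140 of the 144 p63-KO cells (97.2%), against 59 of the 391 wild-type cells (15.1%). Cnfn, Nccrp1 and Crct1 alone reached it in 2 p63-KO cells (1.39%), against 356 wild-type cells (91.0%). Ltf gave 97.8% of the 5-gene UMIs in the p63-KO cells and 17.8% in the wild-type cells, and Crct1 had 0 UMIs in the p63-KO cells, although these had a median of 43919 UMIs. Median Krt13 plus Krt4 was 89.2 CP10K in the p63-KO cells and 348 CP10K in the wild-type cells.

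**Figure D5:**
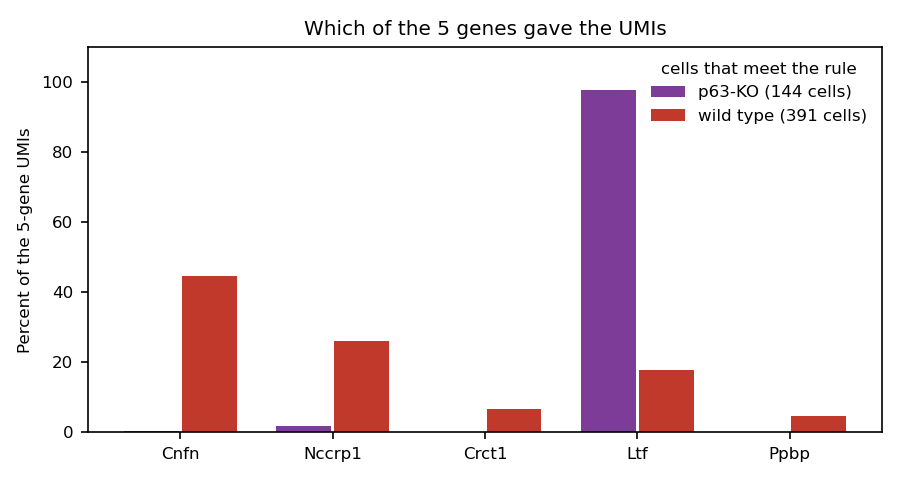
Bars give the percent of all UMIs of the 5 genes that came from each gene, in the 144 p63-KO cells (purple) and the 391 wild-type cells (red) that meet the rule. Ltf gives 97.8% in p63-KO and 17.8% in wild-type cells, and Cnfn 0.386% and 44.6%.

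As a set, genes higher in the wild-type superficial squamous cells differed little between p63-KO cells that met the rule and those above the keratin threshold only. Single genes varied, with Psca and Arg1 higher and Mal, Msln and Sprr3 slightly lower in the cells that met it. In the p63-KO library 69 of 10737 genes lay past 2-fold on the higher side (0.643%) and 8 on the lower (0.0745%). Among 9890 genes measured in both libraries, 28 were higher in p63-KO and 306 in wild type. Cyp2a5 and Sidt1 were the 2 higher in both, which is 7.14% of the p63-KO genes and 0.654% of the wild-type genes. The first share is to be read beside 306 of 9890 genes and the second beside 28 of 9890. With 28 genes higher in p63-KO the overlap could hold at most 28, and its size was not tested. Reads of Cyp2a5 may be shared with near-identical Cyp2a genes. In the p63-KO library the genes higher in wild type had a median log2 ratio of 0.12, and all genes one of −0.01, with 66.3% of those genes above 0 against 46.7% of all genes. Psca was at 829 CPM in p63-KO cells that met the rule and 485 CPM in those that did not, Arg1 at 190.3 and 96.7 CPM, Mal at 907 and 1012 CPM, Msln at 743 and 825 CPM, and Sprr3 at 42.0 and 54.4 CPM. Whether the smaller contrast comes from genotype or from the different cells that the rule picks cannot be told apart.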

How the data were processed

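The authors deposited raw UMI counts of 32285 genes for each barcode. The submitters' processing notes name Cell Ranger 7.1.0 and the build mm10, and the protocols in the labels name a droplet kit reading 3′ ends. How cells were called, the annotation release and the counting of introns were not given in the sources used here. In all, the wild-type library held 6034 barcodes and 76472445 UMIs, and the p63-KO library 2821 barcodes and 86504624 UMIs; 8 barcodes occur in both, 0 of them in superficial squamous cells.

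UMIs were summed over the cells of a group and scaled to CPM. A gene was called at 2-fold on log2(CPM + 1). Summing over cells gives deep cells more weight. Intervals are exact 95% Poisson (CPM), conditional binomial (folds) and Clopper-Pearson (shares), for counting error only. Shares of cells were also taken after thinning to 2000 UMIs. Doublets were scored by simulated neighbours, at 0.8% per 1000 cells; 21 of the 391 superficial squamous and 122 of the 1585 low-sum cells were called and kept. The sums and ratios were tested on simulated data. Tools were Python 3.11.15, numpy 2.4.6, scipy 1.17.1, pandas 2.3.3, scikit-learn 1.9.0 and matplotlib 3.10.9.

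The cells, gene lists and markers were chosen with earlier results of these data known. Named were the markers, Krt13 and Krt4; the 15 highest and 15 lowest ratios among genes of at least 50 CPM and 20% of cells in the higher group (without mitochondrial, ribosomal protein, haemoglobin, sex-linked, Gm-numbered and Rik genes); from each list up to 4 members of largest ratio, up to 2 past 2-fold in the opposite direction and those of at least 500 CPM; markers of other cell types; and, by the same filter, the 10 highest and 10 lowest ratios between cells with and without Ltf or Ppbp. Cyp2a5 and Sidt1, the only genes higher in both libraries, were named after their values were seen. Gene coordinates are from GENCODE M21. Promoters are from RefSeq (GRCm38.p6); 284 of the 402 higher genes matched (70.6%), so no share over them is given. Alternatives are in the closing section.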

Additional observations from a re-analysis of the deposited data

Results flagged for a closer look

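Car12 and Aldh1a3 went opposite ways in the libraries, and the difference between libraries was not tested. The log2 ratio of Car12, cells that meet the rule over the other cells above the keratin threshold, was 1.51 in p63-KO (21.1 and 6.77 CPM, from 159 and 48 UMIs) and −2.88 in wild type (7.38 and 60.5 CPM). That of Aldh1a3 was −1.09 in p63-KO (0.398 and 1.97 CPM, from 3 and 14 UMIs) and 1.85 in wild type (14.1 and 3.18 CPM).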

How the results depend on the processing

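Of 20 alternatives, those that moved the count of higher genes (402) by over 1.5 times gave 252 with genes measured from 20 CPM, 636 against cells with no UMI of the 5 genes, 648 with cells thinned to 2000 UMIs and 230 at 250 CP10K of Krt13 plus Krt4 (added after the data were seen). The count of lower genes (1108) became 449 with a pseudocount of 5 CPM, 488 from 20 CPM, 1744 with a 5-gene sum of at least 8 CP10K, 690 at 100 CP10K of keratin, 209 at 250 CP10K and 1863 thinned. A sum of at least 8 CP10K left 238 superficial squamous cells. Thinning leaves fewer UMIs to each ratio. Of 119 named genes at least 2-fold apart, 58 stayed so in every alternative. The 119 include the 5 genes that chose the cells, whose difference was set by the rule. Reversed were Hmmr (0.56) and Ube2c (0.0099) without cells that hold at least 2 mitosis genes. That setting removes cells by the UMIs of the mitosis list itself. It left 1 list member at 5 CPM or more, with a log2 ratio of −1.17, so Hmmr and Ube2c were under 5 CPM there. Also reversed, at 250 CP10K, were Hmmr (0.71), Top2a (0.52), Ube2c (1.11), Jag2 (0.0563), Gstm2 (0.0098) and the mitosis list (0.58). Of these, Hmmr, Jag2 and Gstm2 were under 5 CPM in both groups. The cause of the reversals at 250 CP10K was not tested. No paired analysis was possible because each genotype has 1 library.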

Other observations

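A set of 43 genes was at least 2-fold lower in superficial squamous than in low-sum cells and also at least 2-fold lower in low-keratin than in low-sum cells. Ctnnd2, a catenin, was at 211 CPM in superficial squamous, 641 CPM in low-sum and 242 CPM in low-keratin cells. Megf11 was at 62.3, 250.6 and 85.6 CPM, Dlg2, a scaffold protein, at 37.1, 101 and 4.89 CPM, and Socs3, an inhibitor of cytokine signalling, at 17.6, 39.4 and 14.8 CPM in the same groups. Krtdap and Notch1 belong to this set, and 4 genes showed the reverse pattern. Genes of the set other than Krtdap and Notch1 were named after their values were seen.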
